A study of Mus musculus with 7 samples.

Results

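The T-cell receptor complex, its coreceptors and the enzymes that act first after receptor engagement were followed through 10 genes of the count table, which lists 55401 genes. They were picked by gene symbol alone, namely *Cd3d*, *Cd3e*, *Cd3g*, *Cd247*, *Trac*, *Cd4*, *Cd8a*, *Lck*, *Zap70* and *Ptpn22*. All 10 were among the 16429 genes that exceeded 1 CPM, a gene's count scaled to the size of its library, in at least 2 samples and were tested. RNA-Seq was performed on knee cartilage from male C57BL/6J WT mice and from *Trpc1-/-* mice of the same background, which carry a germline *Trpc1* allele that lacks an exon in every cell type. Both groups underwent DMM of the right knee, a surgical destabilization that induces osteoarthritis, at 10 weeks of age and were collected 2 weeks later, so both groups had injured joints. Each sample pooled 2 to 3 mice. By the sample labels there were 4 WT and 3 *Trpc1-/-* samples; the Methods give these numbers the other way round and also list subchondral bone, and the labels were followed here.

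T cells recognize peptides through an antigen receptor whose variable chains carry no signaling domain of their own. The CD3 chains and the zeta chain carry the signal into the cell, where LCK, held at the coreceptors CD4 and CD8, phosphorylates them and ZAP-70 docks on the phosphorylated chains. In a joint, such transcripts can come from T cells of the synovium, the blood or the bone marrow, and *Cd4* and *Ptpn22* are also transcribed outside the T lineage.

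The 3 CD3 genes lie side by side on chromosome 9, with *Cd3g* and *Cd3d* transcribed away from each other from starts 1355 bp apart and *Cd3e* starting 27825 bp from *Cd3d*. They lie on the same chromosome as *Trpc1*, 50.7 Mb from it. The 250 bases before the RefSeq starts (GRCm38.p6, each read along its gene's own strand) are shown because these neighbors encode partner chains and include both genes with an unadjusted P under 0.05. Whether the CD3 genes differ from each other in their response to genotype was not tested. Capitals mark matches, on either strand, to 5 short motifs that were searched. The letters TGTGGT stood for RUNX factors, the letters AGGAAG for ETS factors, the letters CTTTGA for TCF and LEF factors, the letters AGATAA for factors of the GATA family, and the letters TATAAA for the TATA box.
*Cd3g*, chr9:44980432-44980681, minus strand: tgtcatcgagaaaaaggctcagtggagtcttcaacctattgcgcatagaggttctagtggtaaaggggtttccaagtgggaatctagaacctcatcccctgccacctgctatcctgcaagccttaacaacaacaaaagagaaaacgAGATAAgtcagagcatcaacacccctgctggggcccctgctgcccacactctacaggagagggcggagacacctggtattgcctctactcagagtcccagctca
*Cd3d*, chr9:44981536-44981785, plus strand: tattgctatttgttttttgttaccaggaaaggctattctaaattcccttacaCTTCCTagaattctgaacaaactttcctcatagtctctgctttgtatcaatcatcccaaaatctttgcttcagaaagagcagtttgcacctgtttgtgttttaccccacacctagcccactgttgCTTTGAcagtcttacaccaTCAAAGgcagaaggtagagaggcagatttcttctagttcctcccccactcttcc
*Cd3e*, chr9:45009612-45009861, minus strand: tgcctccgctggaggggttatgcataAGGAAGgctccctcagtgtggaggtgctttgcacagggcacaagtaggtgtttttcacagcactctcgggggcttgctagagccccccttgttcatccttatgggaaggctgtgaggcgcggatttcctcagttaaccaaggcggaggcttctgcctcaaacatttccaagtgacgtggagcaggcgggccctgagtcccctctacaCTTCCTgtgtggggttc
The *Cd3g* window held 1 GATA match. The *Cd3d* window held 1 ETS match and 2 TCF/LEF matches, and the *Cd3e* window held 2 ETS matches. None of the 3 windows held the TATA box letters or the RUNX letters. Of 32817 mouse promoter windows of the same length, 29.5% held the ETS letters, 13.8% the TCF/LEF letters, 9.99% the GATA letters, 14.04% the RUNX letters and 12.4% the TATA box letters, so these matches are common and are given as a description only.

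Total counts on genes ranged from 52142451 to 118254070 per sample, with the lowest total in WT replicate 1, and a level of 3 counts corresponded to 0.0244 to 0.0630 CPM. Cartilage transcripts were abundant in every sample, with *Col2a1*, the main cartilage collagen, at 1449 to 3290.1 CPM. Blood and marrow transcripts were present as well, with *Cd79a*, a chain of the B-cell receptor, at 16.8 to 36.8 CPM. *Trpc1* itself was at 4.32 to 4.81 CPM in the WT samples and 3.03 to 3.78 CPM in the *Trpc1-/-* samples, groups that did not overlap (log2 fold change -0.44, SE 0.13, adjusted P = 0.407 by edgeR), and a count for the gene as a unit cannot single out the deleted exon. WT replicate 1 stood apart: the summed CPM of 7 neutrophil genes was 0.349 times the mean of the other WT samples and that of 8 macrophage genes 0.702 times, whereas 4 muscle genes summed to 7.70 times that mean. Levels below are therefore given with this sample named. The labels do not say that the samples came from separate litters or days, so the tests measure the spread between pooled samples.

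None of the 10 genes passed an adjusted P of 0.05 for the comparison of *Trpc1-/-* with WT, by edgeR's quasi-likelihood test, DESeq2 or limma-voom. Over all tested genes edgeR called 0% (0 genes, with 10.0% or 1643 genes at an unadjusted P under 0.05), DESeq2 1.79% (294 genes) and limma-voom 1 gene. At an unadjusted P under 0.05 in edgeR, 2 of the 10 genes, *Cd3d* and *Cd3e*, were higher in *Trpc1-/-* and 0 were lower, against 4.51% and 5.49% of all tested genes. *Cd3e* exceeded 1 CPM in 0 of 4 WT samples and 3 of 3 *Trpc1-/-* samples, so it was tested only because of the group in which it was higher, and its place in these counts is no support for a difference. The other 9 genes would have passed on the samples of either group alone. All 10 genes had the higher mean in *Trpc1-/-*, against 48.1% of all tested genes (51.9% had the lower mean), although *Ptpn22* had the lower mean when counts were scaled by the upper quartile or by library size alone. The median log2 fold change of the 10 genes was 0.22, and that of all tested genes was -0.0088. The groups did not overlap for 1 of the 10 genes, *Cd3e*, against 7.16% of all tested genes that were higher and 6.41% that were lower without overlap, and this is the gene that the filter admitted through the *Trpc1-/-* samples. In tissue of this kind, a difference in the number of T cells and a difference in RNA per T cell cannot be told apart.

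WT replicate 1 had the lowest CPM of all 7 samples for 10 of the 10 genes, whereas it was the lowest for 38.1% of all tested genes. Its level relative to the mean of the other WT samples ran from 0.352 for *Cd247* to 0.874 for *Ptpn22*, with a median of 0.524, against 0.994 for all tested genes. Exact Poisson 95% intervals, which cover counting error only, set WT replicate 1 apart from the next lowest sample for 7 of the 10 genes. The exceptions were *Cd3e*, *Zap70* and *Ptpn22*. Without WT replicate 1, 5 of the 10 genes had the higher mean in *Trpc1-/-* (49.7% of all genes) and 5 the lower (50.3%), the median log2 fold change was 0.030, and *Cd3d* and *Cd3e* were still higher at an unadjusted P under 0.05 (8.53% of all genes, with 8.39% lower). Each sample's label carries a number that was read here as a mouse number. That reading is an inference, since each sample pooled 2 to 3 mice. By these numbers, WT replicates 3 and 4 belong to the 1700s and the other 5 samples to the 1300s. Within the 1300s, where WT replicate 1 is 1 of 2 WT samples, all 10 genes had the higher mean (49.0% of all genes), the median was 0.56 and 4 genes, *Cd3d*, *Cd3e*, *Cd4* and *Trac*, were higher at an unadjusted P under 0.05 (4.84% of all genes). The 1700s hold WT samples alone and give no value. Without WT replicate 1 and within the 1300s, *Cd3e* again passed the filter only through the *Trpc1-/-* samples. Its place in these counts is no support for a difference. *Cd3d*, *Cd3g*, *Cd247*, *Trac*, *Cd8a* and *Zap70* were under 1 CPM in WT replicate 1. Within the 1300s they too could not have passed on the WT samples alone and needed the *Trpc1-/-* samples. Their place in the counts within the 1300s, *Cd3d* and *Trac* included, is likewise no support for a difference.

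**Figure D1:**
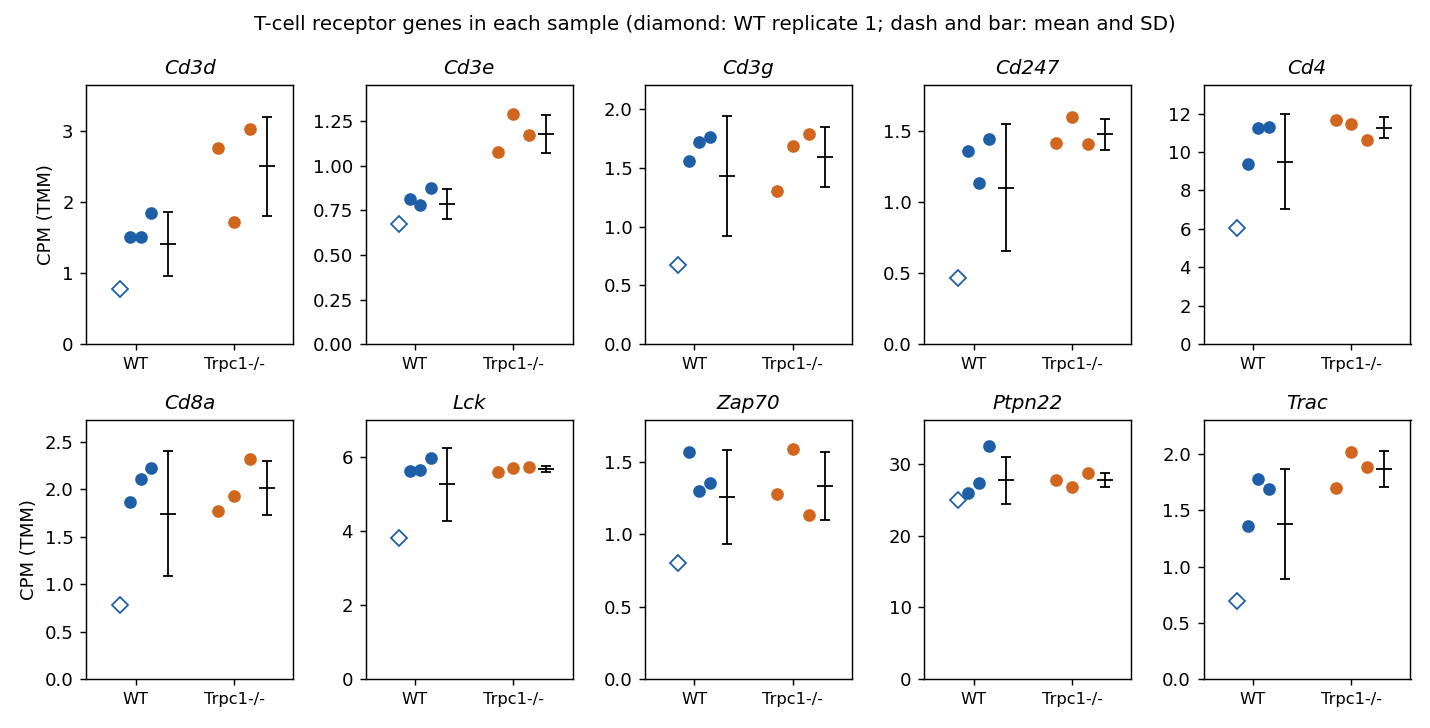
TMM-normalized CPM (y axis, linear from 0, a scale of its own in each panel) of the 10 genes in the 4 WT (blue; open diamond, WT replicate 1) and 3 *Trpc1-/-* (orange) samples, with a dash and bar for the mean and SD. The diamond is the lowest point in every panel, and *Cd3e* is the gene whose groups do not overlap.

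**Figure D2:**
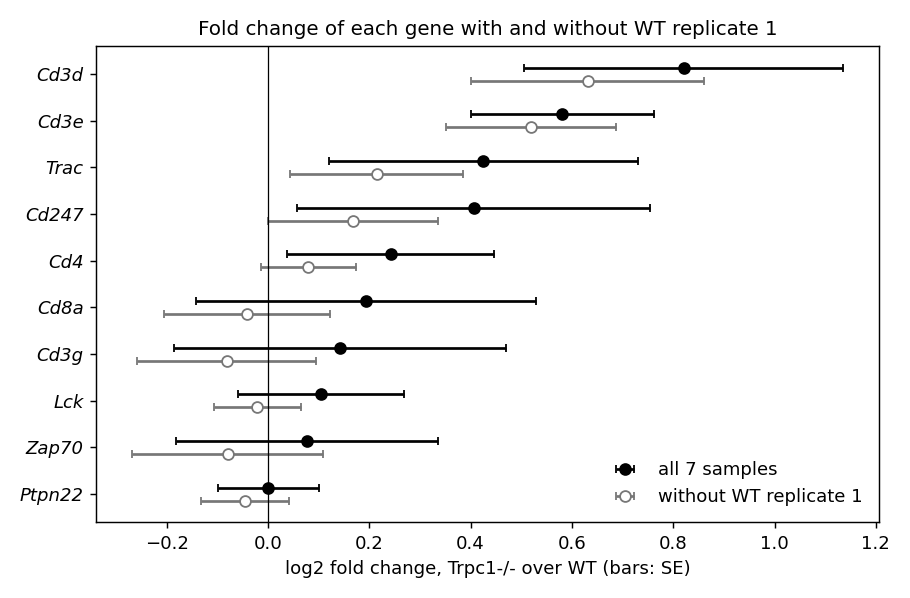
Log2 fold change of *Trpc1-/-* over WT (x axis; bars, SE from edgeR) for each of the 10 genes, with all 7 samples and without WT replicate 1. Without that sample *Cd3d* and *Cd3e* stay highest at 0.63 and 0.52, and 5 genes lie below 0.

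CD3 epsilon, encoded by *Cd3e* (ENSMUSG00000032093, chr9:44998740-45009627), pairs with the other CD3 chains and is needed for the receptor to reach the cell surface. Its CPM was 0.673, 0.811, 0.780 and 0.876 in WT replicates 1 to 4 and 1.08, 1.29 and 1.17 in *Trpc1-/-* replicates 1 to 3. Every *Trpc1-/-* sample lay above every WT sample, and WT replicate 1 was close to the other WT samples. The mean was 0.785 ± 0.0849 (SD, n = 4) in WT and 1.18 ± 0.107 (SD, n = 3) in *Trpc1-/-*. The log2 fold change was 0.58 (SE 0.18), with an unadjusted P of 0.0132 and an adjusted P of 0.416 in edgeR and 0.178 in DESeq2. Leaving out each sample in turn gave 0.51 to 0.64, with an unadjusted P under 0.05 in 6 of 7 fits and the exception when *Trpc1-/-* replicate 2 was left out. *Cd3e* exceeded 1 CPM in 0 of 4 WT samples and was tested only because of its levels in *Trpc1-/-*. Neither the separation of the groups nor these P values are therefore support for a difference. With no filter on low counts the log2 fold change was 0.60 (SE 0.20, unadjusted P = 0.0136, adjusted P = 0.735 in edgeR). Over all 17 alternatives the adjusted P ranged from 0.178 to 0.932. The gene shares 135 exonic bases with *Gm48719* on the opposite strand.

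CD3 delta, encoded by *Cd3d* (ENSMUSG00000032094, chr9:44981786-44987339), forms a dimer with CD3 epsilon. Its CPM was 0.778, 1.51, 1.502 and 1.84 in the WT samples and 2.76, 1.72 and 3.03 in the *Trpc1-/-* samples. *Trpc1-/-* replicates 1 and 3 lay above all WT samples, and replicate 2 lay within the WT range. The mean was 1.41 ± 0.449 (SD, n = 4) in WT and 2.504 ± 0.692 (SD, n = 3) in *Trpc1-/-*. The log2 fold change was 0.82 (SE 0.31, unadjusted P = 0.0323, adjusted P = 0.474 in edgeR, 0.240 in DESeq2). It ranged from 0.63 without WT replicate 1 to 1.02 without *Trpc1-/-* replicate 2, and the unadjusted P was under 0.05 in 3 of 7 fits that left a sample out.

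CD3 gamma, encoded by *Cd3g* (ENSMUSG00000002033, chr9:44969572-44980431), takes the place of CD3 delta in the other dimer with CD3 epsilon. Its CPM was 0.673, 1.56, 1.72 and 1.76 in WT and 1.30, 1.69 and 1.79 in *Trpc1-/-*. The *Trpc1-/-* values spanned the 3 higher WT values, and WT replicate 1 lay below the rest. Between the groups the log2 fold change was 0.14 (SE 0.33, adjusted P = 0.885 in edgeR) and -0.082 without WT replicate 1. The ratio of *Cd3g* to its divergent neighbor *Cd3d*, both in CPM per kilobase of exon, was 0.480 to 0.636 in WT and 0.262, 0.545 and 0.327 in *Trpc1-/-* replicates 1 to 3, ranges that overlapped through replicate 2.

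The zeta chain, encoded by *Cd247* (ENSMUSG00000005763, chr1:165788681-165877277), holds most of the receptor's signaling motifs. Its CPM was 0.462, 1.36, 1.14 and 1.45 in WT and 1.42, 1.601 and 1.41 in *Trpc1-/-*. WT replicate 1 was below the other 6 samples, which lay between 1.14 and 1.601 CPM. The log2 fold change was 0.41 (SE 0.35, adjusted P = 0.676 in edgeR) and 0.17 without WT replicate 1. *Cd247* shares 206 exonic bases with *Gm16565* on its own strand, which can make its estimated count less certain than those of the CD3 genes. It also shares 3007 exonic bases with *Pou2f1* on the opposite strand, whose reads stranded libraries can tell apart. The effect of either overlap on the count was not tested.

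The constant region of the alpha chain, *Trac* (ENSMUSG00000076928, chr14:54220521-54224206), had 0.694, 1.36, 1.78 and 1.69 CPM in WT and 1.70, 2.02 and 1.89 CPM in *Trpc1-/-*. The groups overlapped, with WT replicate 3 above *Trpc1-/-* replicate 1. The means were 1.38 ± 0.492 (SD, n = 4) and 1.87 ± 0.160 (SD, n = 3). The groups differed by a log2 fold change of 0.43 (SE 0.30, adjusted P = 0.625 in edgeR) and 0.21 without WT replicate 1.

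The other receptor chains, none of which was among the 10 genes, gave 0 calls and 0 genes at an unadjusted P under 0.05 among the 4 that were tested of 9 listed. Over all tested genes, edgeR called 0%, with 4.51% higher and 5.49% lower at that unadjusted P. The beta-chain constant region *Trbc1* (ENSMUSG00000076490) had 1.26, 2.19, 1.97 and 2.42 CPM in WT and 2.59, 2.79 and 2.94 CPM in *Trpc1-/-*. Its groups did not overlap, with a log2 fold change of 0.49 (SE 0.23, unadjusted P = 0.0617, adjusted P = 0.509 in edgeR). Of all tested genes, 7.16% were higher without overlap. For its near-identical neighbor *Trbc2* the log2 fold change was 0.17 (SE 0.29), and how the pipeline shared reads between these copies is not known. The delta-chain constant region *Trdc* gave -0.013 (SE 0.19), and it was the exception to the pattern in WT replicate 1, where it had 1.26 CPM against 0.939 to 1.21 CPM in the other WT samples. *Cd8b1*, the CD8 beta chain, gave 0.33 (SE 0.37).

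The untested chains were the gamma-chain constant regions *Trgc1* to *Trgc4* and *Ptcra*. *Ptcra*, which encodes the pre-T alpha chain of immature thymocytes, had 0 counts in all 7 samples. *Trgc1* had 0 counts in WT replicate 1 and 28 to 49 in the other 6 samples, and *Trgc4* had 0 and 21 to 68. *Trgc2* had 6 counts in WT replicate 1 and 37 to 69 elsewhere, and *Trgc3* had at most 6 in any sample. The constant gamma regions are alike in sequence, so their separate counts are uncertain.

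Variable segments of the receptor were detected at low counts, and none was tested. The 110 alpha-chain variable segments summed to 40, 145, 210 and 145 counts in WT and 175, 146 and 191 in *Trpc1-/-*, and 64 of them reached 3 counts in at least 1 sample. The 22 beta-chain segments summed to 27, 171, 257 and 130 counts in WT and 219, 170 and 190 in *Trpc1-/-*, and 19 reached 3 counts. WT replicate 1 had the lowest sum of alpha and of beta segments, and 4 alpha and 3 beta segments reached 3 counts in it. In CPM, the alpha sums were 0.841 to 1.84 in WT and 1.43 to 1.95 in *Trpc1-/-*, and the beta sums 0.567 to 2.09 and 1.78 to 1.94, so both pairs of ranges overlapped. The 5 delta-chain segments summed to 0 to 0.330 CPM in WT, with 0 counts in WT replicate 1 and 26 to 36 in the other WT samples, and to 0.367 to 0.673 CPM (38 to 66 counts) in *Trpc1-/-*, without overlap. The 7 gamma-chain segments summed to 0.292 to 0.495 CPM in WT and 0.253 to 0.469 CPM in *Trpc1-/-*, and there WT replicate 1, at 0.483 CPM, was not low.

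Summed over *Cd3d*, *Cd3e*, *Cd3g*, *Cd247*, *Trac*, *Trbc1* and *Trbc2*, the receptor chains were at 6.07, 11.8, 12.1 and 13.7 CPM in WT and 13.5, 14.2 and 16.2 CPM in *Trpc1-/-*. WT replicate 4 exceeded *Trpc1-/-* replicate 1, and the other WT samples lay below all *Trpc1-/-* samples. The WT mean was 10.9 ± 3.32 (SD, n = 4), or 12.5 ± 1.01 (SD, n = 3) without replicate 1, and the *Trpc1-/-* mean was 14.6 ± 1.40 (SD, n = 3).

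*Cd4* (ENSMUSG00000023274, chr6:124864692-124888221), which marks helper T cells and binds MHC class II, was the more abundant coreceptor. Its CPM was 6.03, 9.37, 11.3 and 11.3 in WT and 11.7, 11.5 and 10.6 in *Trpc1-/-*. WT replicates 3 and 4 lay within the *Trpc1-/-* range. The log2 fold change was 0.24 (SE 0.20, adjusted P = 0.671 in edgeR), and 0.080 without WT replicate 1. *Cd8a* (ENSMUSG00000053977, chr6:71373427-71379173), the alpha chain of the coreceptor of cytotoxic T cells, had 0.778, 1.87, 2.11 and 2.22 CPM in WT and 1.78, 1.93 and 2.33 CPM in *Trpc1-/-*. Its groups overlapped throughout apart from WT replicate 1, with a log2 fold change of 0.19 (SE 0.34, adjusted P = 0.841 in edgeR) that was -0.041 without that sample. Per kilobase of exon, *Cd4* exceeded *Cd8a* 6.997, 4.52, 4.81 and 4.59 times in WT and 5.93, 5.35 and 4.13 times in *Trpc1-/-*. The ratio was highest in WT replicate 1 and otherwise similar in both groups. *Cd8b1* stood to *Cd8a*, its partner in the heterodimer, at 1.06 to 1.52 in all 7 samples.

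LCK, the Src-family kinase that starts receptor signaling, is encoded by *Lck* (ENSMUSG00000000409, chr4:129548344-129573641). Its CPM was 3.80, 5.62, 5.64 and 5.98 in WT and 5.59, 5.71 and 5.71 in *Trpc1-/-*. The 6 samples other than WT replicate 1 lay within 5.59 to 5.98 CPM. For *Lck* the log2 fold change was 0.10 (SE 0.16, adjusted P = 0.825 in edgeR) and -0.021 without WT replicate 1. *Zap70* (ENSMUSG00000026117, chr1:36761798-36782818), the kinase that docks on the phosphorylated chains, had 0.799, 1.57, 1.30 and 1.36 CPM in WT and 1.28, 1.59 and 1.13 CPM in *Trpc1-/-*. Its groups overlapped, with a log2 fold change of 0.077 (SE 0.26, adjusted P = 0.922 in edgeR) and -0.080 without WT replicate 1.

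*Ptpn22* (ENSMUSG00000027843, chr3:103859795-103912247) encodes a phosphatase that restrains LCK and ZAP-70 and is expressed across blood cell lineages. It was the most abundant of the 10 genes, with 25.03, 25.9, 27.4 and 32.5 CPM in WT and 27.8, 26.8 and 28.7 CPM in *Trpc1-/-*. All *Trpc1-/-* values fell inside the WT range. For *Ptpn22* the log2 fold change was 0.00091 (SE 0.099, adjusted P = 0.997 in edgeR) and -0.046 without WT replicate 1.

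Scaled to exon length, the order of levels over the 7 samples was *Ptpn22* at 4.10 ± 0.358 CPM per kilobase (SD, n = 7), *Cd4* at 2.54, *Lck* at 1.86, *Trac* at 1.70, *Cd3d* at 1.03, *Cd8a* at 0.511, *Cd3g* at 0.458, *Zap70* at 0.431, *Cd247* at 0.237 and *Cd3e* at 0.234. The order was the same with the longest annotated transcript as the length. Neighbors kept their order in 7 of 7 samples except for *Lck* over *Trac* (5 of 7), *Cd3g* over *Zap70* (3 of 7) and *Cd247* over *Cd3e* (4 of 7), which did not differ beyond their spread. Relative to *Cd3e*, *Lck* was at 7.88 to 10.1 in WT and 6.16 to 7.24 in *Trpc1-/-*, and *Ptpn22* at 19.3 to 22.4 and 12.5 to 15.6. For both ratios the *Trpc1-/-* samples lay below all WT samples, WT replicate 1 included. Both have as their denominator *Cd3e*, which was tested only because of its levels in *Trpc1-/-*, so they add nothing to the values of that gene.

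**Figure D3:**
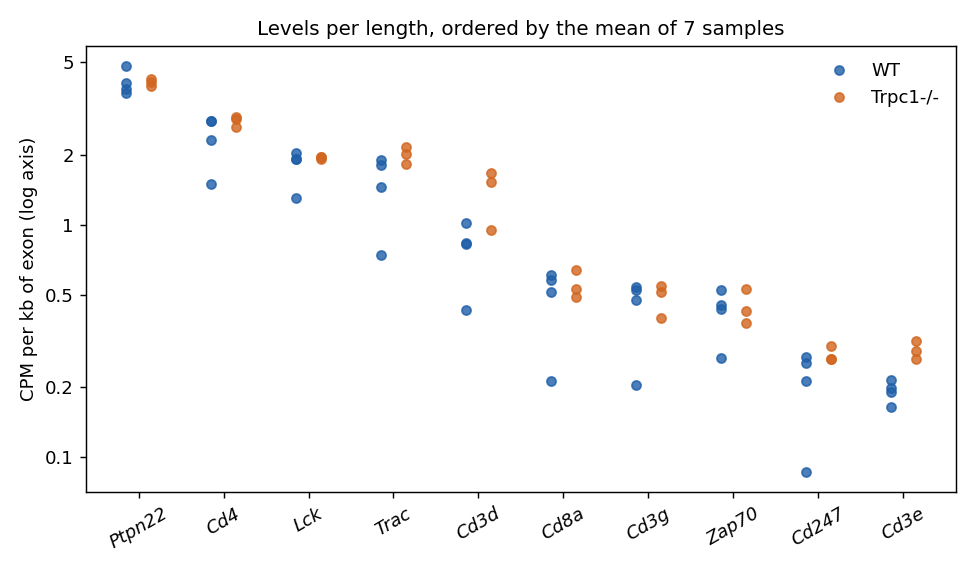
CPM per kilobase of exon (log axis) of the 10 genes, ordered by their mean over the 7 samples, with a point for each WT and *Trpc1-/-* sample. *Ptpn22* is highest at a mean of 4.10 and *Cd247* and *Cd3e* are lowest at 0.237 and 0.234.

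Downstream of the receptor, 25 of 26 adaptors, kinases and effectors were tested, 0 were called, and 2 were higher and 1 lower at an unadjusted P under 0.05. Over all tested genes, 4.51% were higher and 5.49% lower at that P in edgeR. Of the 25 genes 3 were higher without overlap and 0 lower, against 7.16% and 6.41% of all tested genes. Higher were *Themis*, an adaptor of the T lineage (log2 fold change 0.76, SE 0.32, adjusted P = 0.496 in edgeR), and *Grap2*, which links SLP-76 to the receptor (0.27, SE 0.094, adjusted P = 0.453), and neither overlapped between the groups. *Themis* exceeded 1 CPM in 1 of 4 WT samples and 3 of 3 *Trpc1-/-* samples and so passed the filter only with the group in which it was higher. *Themis* was at 0.441, 0.896, 0.926 and 1.27 CPM in WT and 1.32, 1.67 and 1.55 CPM in *Trpc1-/-*. Lower was *Plcg1* (-0.35, SE 0.13, adjusted P = 0.471), a phospholipase used by many cell types. Of these 25 genes 20 had the higher mean (48.1% of all tested genes), with a median log2 fold change of 0.12. Without WT replicate 1, 16 had it (49.7% of all genes). Of 18 tested inhibitors of receptor signaling, out of 19 listed, 0 were at an unadjusted P under 0.05, 9 had the higher and 9 the lower mean, and the median was 0.024. The smallest P values in that list belonged to *Dgkz*, a diacylglycerol kinase (-0.15), *Btla* (0.31) and *Pdcd1*, which encodes PD-1 (-0.39).

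Among 10 tested of 14 costimulatory and adhesion receptors, *Cd2* alone was at an unadjusted P under 0.05 (log2 fold change 0.44, SE 0.17, adjusted P = 0.479 in edgeR). It had 2.92 to 4.70 CPM in WT and 5.15 to 5.91 CPM in *Trpc1-/-*, without overlap. Of all tested genes, 4.51% were higher at that P in edgeR and 7.16% were higher without overlap. *Cd28* gave -0.30 and *Slamf6* 0.14, and the median of the list was 0.14, with 8 of 10 genes at the higher mean (48.1% of all tested genes). Leaving out WT replicate 1 gave 6 of 10 genes at the higher mean (49.7% of all genes) and a median of 0.055. Of 13 tested of 16 transcription factors of the lineage, 0 were at an unadjusted P under 0.05, and the nearest were *Zbtb7b*, which directs CD4 T cells (-0.21), *Ikzf1* (0.21) and *Klf2* (-0.12). *Foxp3*, the factor of regulatory T cells, was at 0.140 to 0.481 CPM and was not tested. Of 13 homing and survival receptors, all tested, *Ccr7*, which guides naive T cells (0.49, SE 0.16, adjusted P = 0.430), and *Ccr6* (0.71, SE 0.27, adjusted P = 0.461) were higher at an unadjusted P under 0.05, and *Il2rb* gave 0.44. *Ccr6* exceeded 1 CPM in 0 WT samples and 2 *Trpc1-/-* samples and was likewise tested only because of the group in which it was higher. The share of all tested genes higher at that P was again 4.51%. The median of the homing and survival list was 0.11. Of its genes, 10 of 13 had the higher mean (48.1% of all tested genes), and 6 of 13 without WT replicate 1 (49.7%). Of the immature lymphoid genes, *Dntt* gave 0.27, *Rag1* 0.059 and *Rag2* 0.031, with 0 of 3 at an unadjusted P under 0.05.

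**Figure D4:**
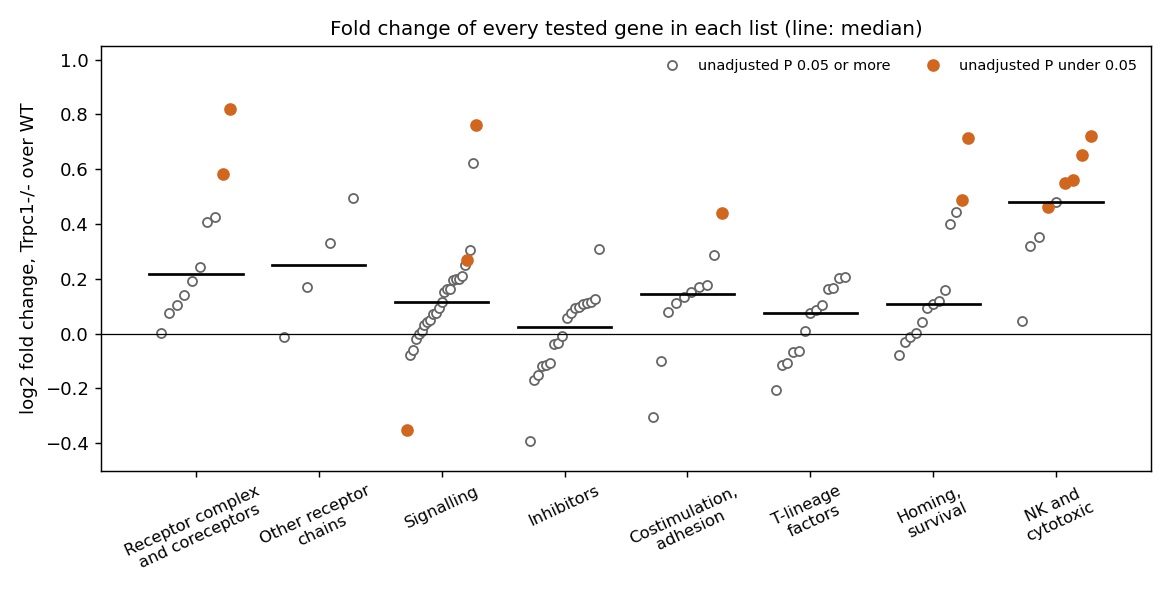
Log2 fold change of *Trpc1-/-* over WT (y axis) for every tested gene of the T-cell receptor set, of 6 other T-cell lists and of the NK and cytotoxic list, with a point for each gene (filled where the unadjusted P in edgeR was under 0.05) and a line at each list's median. The NK and cytotoxic list has the highest median of those drawn, 0.48, beside 0.22 for the receptor genes.

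Genes of NK and cytotoxic cells were examined beside the receptor genes. Of 9 tested of 12 listed, edgeR called 0 and DESeq2 called 2 (1.79% of all tested genes), *Klrk1* (log2 fold change 0.55, SE 0.13 in edgeR; DESeq2 adjusted P = 0.0181) and *Klre1* (0.72, SE 0.20; DESeq2 adjusted P = 0.0496), both receptors of NK cells. At an unadjusted P under 0.05 in edgeR, 5 were higher, *Klrk1*, *Klre1*, *Prf1*, *Klrb1c* and *Gzma*, against 4.51% of all tested genes, and none of the 5 overlapped between the groups, against 7.16%. *Klrk1* had 5.57, 7.18, 7.78 and 7.07 CPM in WT and 10.1, 9.23 and 11.1 CPM in *Trpc1-/-*. *Ncr1*, which defines NK cells, was at 2.02 to 3.43 CPM in WT and 2.99 to 3.69 CPM in *Trpc1-/-*. The list summed to 26.3 to 47.0 CPM in WT and 48.2 to 56.7 CPM in *Trpc1-/-*. *Gzmk* had 0 counts in WT replicate 1, and the other listed genes had counts in every sample. Without WT replicate 1, 5 genes of the list were higher at an unadjusted P under 0.05 in edgeR, against 8.53% of all genes. *Ncr1*, *Klrd1*, *Ccl5* and *Nkg7* were not at that P in either fit. Their log2 fold changes were 0.48, 0.35, 0.32 and 0.047 with all samples. Without WT replicate 1 they were 0.40, 0.21, 0.14 and -0.17.

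The other cell type lists were not uniform in WT replicate 1. The median ratio of that sample to the other WT samples was 0.524 for the 10 receptor genes, 0.719 for the NK and cytotoxic genes, 0.593 for B-lineage, 0.626 for macrophage, 0.422 for neutrophil and 0.710 for erythroid genes. It was 0.875 for dendritic-cell, 0.845 for osteoblast, 0.937 for chondrocyte, 0.896 for endothelial and 7.58 for muscle genes, and 1.03 for the transcription factors of the T lineage.

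**Figure D5:**
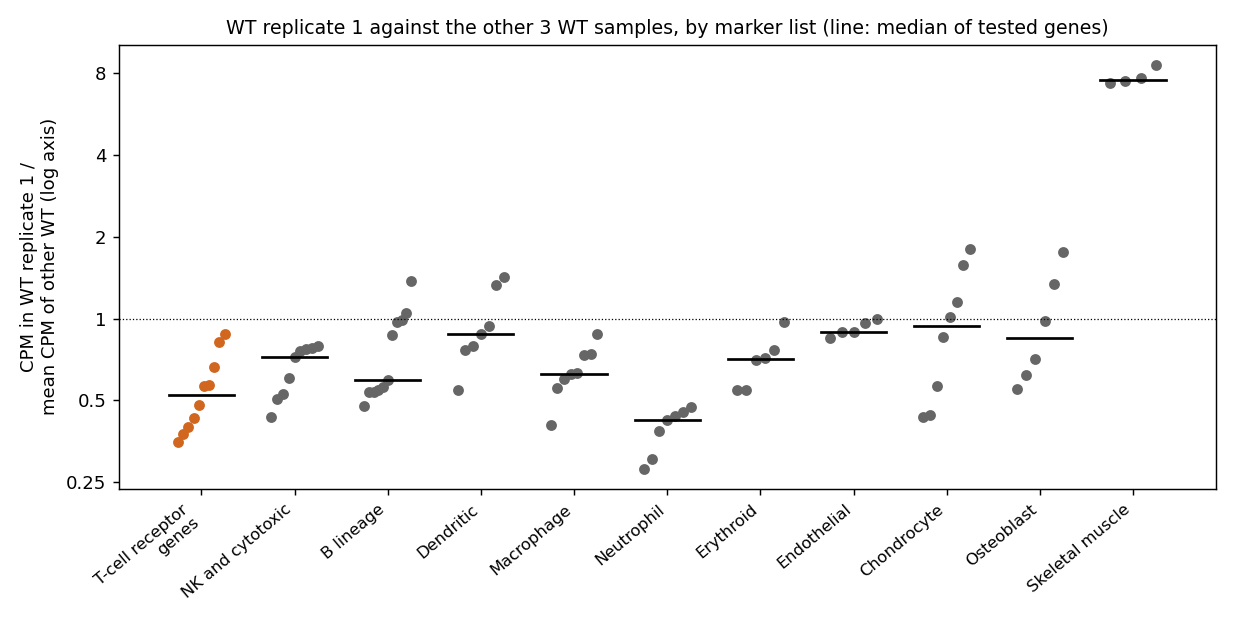
CPM in WT replicate 1 divided by the mean CPM of the other 3 WT samples (y axis, log scale), with a point for each tested gene of the T-cell receptor set (orange) and of 10 marker lists (gray), a line at each list's median and a dotted line at a ratio of 1. All 10 receptor genes lie below 1, with a median of 0.524, beside medians of 0.422 for neutrophil genes and 7.58 for muscle genes.

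Other cell types differed between the samples too, and their part in the values of the receptor genes was not tested. The 11 B-lineage genes summed to 300.8 to 364 CPM in WT and 349 to 425 CPM in *Trpc1-/-*. Of them 10 of 11 had the higher mean (48.1% of all tested genes) and 0 were at an unadjusted P under 0.05. For 5 of the 11 genes the *Trpc1-/-* samples lay above all WT samples, against 7.16% of all tested genes. Leaving out WT replicate 1 gave 11 of 11 B-lineage genes with the higher mean (49.7% of all genes). In that fit 3 were higher at an unadjusted P under 0.05 in edgeR (8.53% of all genes) and 0 were called (0.32% of all genes). The 6 erythroid genes summed to 11858 to 22798 CPM in WT and 26180.5 to 36090.0 CPM in *Trpc1-/-*, without overlap. Of them 6 of 6 were higher at an unadjusted P under 0.05 in edgeR, against 4.51% of all tested genes. DESeq2 called 3, against 1.79% of all tested genes. The 7 neutrophil genes summed to 5197 to 16565 and 12202 to 16071 CPM, the 8 macrophage genes to 417 to 605 and 579.9 to 664 CPM, and the 9 dendritic-cell genes to 139.9 to 171 and 159 to 160.0 CPM, in WT and *Trpc1-/-* in that order. The 8 chondrocyte genes summed to 4885 to 5424 CPM in WT and 2850.2 to 5201 CPM in *Trpc1-/-*. Of them 8 of 8 had the lower mean (51.9% of all tested genes). In edgeR 2 were lower at an unadjusted P under 0.05 (5.49% of all tested genes). The 6 osteoblast genes summed to 7352 to 13546 and 5784 to 10061 CPM, the 5 endothelial genes to 174 to 191 and 173 to 183 CPM, and the 4 muscle genes to 47.5 to 899.7 and 304 to 761 CPM. WT replicate 1 held the lowest WT sum of the B-lineage, erythroid, neutrophil, macrophage, dendritic-cell and endothelial genes. It held the highest WT sum of the chondrocyte, osteoblast and muscle genes. The muscle genes summed to 169, 134 and 47.5 CPM in WT replicates 2 to 4, below all *Trpc1-/-* samples. Without WT replicate 1, 4 of 4 muscle genes were higher at an unadjusted P under 0.05 in edgeR (8.53% of all genes), with a median log2 fold change of 2.11.

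The 5 genes outside the set whose log2 CPM followed the mean of *Cd3d*, *Cd3e*, *Cd3g*, *Cd247* and *Trac* most closely over the 7 samples were *Gimap6*, *Glrx3*, *Ptbp3*, *Lcmt2* and *Fcmr*, with Pearson's r of 0.994 to 0.997. *Gimap6* encodes a lymphocyte GTPase and *Fcmr* an IgM receptor of lymphocytes. *Gimap6* had 19.7 CPM in WT replicate 1 and 29.1 to 31.6 CPM in the other WT samples, against 32.7 to 34.3 CPM in *Trpc1-/-*. The 7 points share their libraries and depth, and 9.25% of tested genes had an r above 0.9, so the likeness is a description. Without WT replicate 1, r for these 5 genes was 0.951 to 0.971.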

How the data were processed

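RNA was taken from knee cartilage of 4 WT and 3 *Trpc1-/-* samples, grouped by the labels. Per the labels and Methods, ribosomal RNA was depleted and stranded libraries were sequenced from both ends. The authors trimmed reads with Cutadapt 2.5, aligned them to GRCm38 with HISAT2 2.1.0 and estimated coverage with StringTie 2.0.3. The estimated counts they deposited for each gene derive from this coverage, hold whole numbers (rounding left them unchanged) and carry no normalization. All 7 columns were used.

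The tested genes exceeded 1 CPM in 2 or more samples. In R 4.3.3, counts were scaled by TMM and tested with edgeR 4.0.16 (quasi-likelihood, genotype alone) with Benjamini-Hochberg adjustment over 16429 genes at 0.05. SE values came from the F statistic. DESeq2 1.42.0 and limma-voom (limma 3.58.1) were alternatives, as were other normalizations, filters, the mouse number series, the replicate block and each sample left out. On simulated data with 200 changed genes among 16429, edgeR called 183 of them, including 100 of 100 changed 4-fold and 83 of 100 changed 2-fold. The simulated counts had the same dispersion, 0.042, for every gene and no outlying sample. They therefore check the fit and do not give the power to detect a change in the 10 genes here. The floor was 3 counts, and intervals and floors cover counting error only. CPM per kilobase used the union of exons in GENCODE M21, and promoter sequence came from RefSeq (8 of the 10 genes matched). The log2 CPM values used for likeness had a prior count of 1.

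The genes and lists were chosen with earlier results of these data known. Named genes were the 10 genes, the other receptor chains, up to 3 genes with the smallest unadjusted P per T-cell list, defining markers, *Trpc1*, and the 5 genes most like the receptor genes. The NK and cytotoxic genes named besides *Ncr1* belong to a list whose summed level is given. Replicate numbers 1 to 3 occur in both groups but mark different animals, and same-numbered samples did not deviate together. Not every defining marker is reported here.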

Additional observations from a re-analysis of the deposited data

Results flagged for a closer look

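Of 43 sets of WT values examined for a sample far from the other 3, 5 stood out, and WT replicate 1 was the far sample in each. The gap to the nearest WT sample, as a share of the whole WT range, was 0.837 for the CPM of *Lck*, which was low in that sample, and 0.885 for the ratio of *Cd4* to *Cd8a*, which was high. It was 0.860 for the summed NK and cytotoxic genes and 0.888 for the summed macrophage genes, both low, and 0.857 for the summed muscle genes, which were high. With this limit, about 1 in 20 such sets is expected to stand out by chance. The 5 sets share libraries, so they are not separate observations.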

How the results depend on the processing

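Of 170 values of the 10 genes' log2 fold changes under the alternatives, 158 kept their direction and their side of the adjusted P of 0.05, and 12 turned in direction. With each sample left out in turn, *Cd3g* ranged from -0.082 to 0.27, *Cd8a* from -0.041 to 0.32, *Lck* from -0.021 to 0.17, *Zap70* from -0.080 to 0.20 and *Ptpn22* from -0.046 to 0.085, with the lowest value of each without WT replicate 1. *Zap70* was at -0.073 without *Trpc1-/-* replicate 2. *Ptpn22* was at -0.0094 with the upper quartile, -0.061 with library size alone, -0.030 and -0.0043 without WT replicates 2 and 3, and -2.95e-05 and -0.024 without *Trpc1-/-* replicates 1 and 3. The cause was not tested. The number of the 10 genes with the lower mean, 0 with all samples, was 1 with the upper quartile or library size alone and 0 to 5 with a sample left out, and 0 of them were called under every alternative. Over all genes, DESeq2 called 294, limma-voom 1, and fits with a sample left out 0 to 52, the highest without WT replicate 1.

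Counts of list genes at an unadjusted P under 0.05 moved by over 1.5 times for other receptor chains from 0 to 1 (DESeq2, limma-voom, the replicate block, the mouse number series as covariate), for inhibitors from 0 to 1 (DESeq2, limma-voom, upper quartile, no filter, the block, the 1300s alone, the covariate), for transcription factors from 0 to 1 (DESeq2, upper quartile), for signaling genes from 3 to 1 and homing receptors from 2 to 1 (library size alone), for costimulation from 1 to 0 (library size alone, the block) or 2 (the covariate), and for immature lymphoid genes from 0 to 1 (the 1300s alone, the covariate). With a sample left out, they were 1 to 4 for signaling genes, 0 to 3 for homing receptors, 0 for immature lymphoid genes and 0 to 1 for the other lists. The ratio of *Trac* to *Cd3e*, 7.28 by the union of exons, was 4.55 with the longest transcript.

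With the replicate block over replicates 1 to 3, the median log2 fold change of the 10 genes was 0.41, with 1 gene, *Cd3e*, at an unadjusted P under 0.05. There too, *Cd3e* passed the filter only through the *Trpc1-/-* samples. Deviations of same-numbered samples correlated at -0.35, -0.20 and -0.044, so the numbers were not taken to pair samples. Depth limits the rarest genes most, as *Cd247* rests on 22 counts and *Cd3e* on 32 in WT replicate 1.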
